A study of Mus musculus with 9 samples.

Results

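Mature miRNAs named miR-21a, miR-22, miR-26a and miR-26b were followed through the epididymosomes of the mouse, with members taken by name alone as all rows beginning with one of these names. The rule found 6 of the 358 miRNAs in the table: miR-21a-5p, miR-21a-3p, miR-22-3p, miR-22-5p, miR-26a-5p and miR-26b-5p. Epididymosomes are small membrane vesicles shed by the epididymal epithelium, and they were isolated on a density gradient from the 3 segments of the duct that spermatozoa travel through in turn: caput, corpus and cauda. All libraries came from male Swiss mice aged 8 weeks that had received no treatment named in the labels, and the segment was the difference between the 3 groups. Each segment had 3 small RNA libraries, and a library held RNA from several pooled animals, which makes the replicates separate pools and not single mice. Because the pools are whole vesicle preparations, fewer vesicles of one kind and less miRNA per vesicle cannot be told apart.

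A miRNA is cut from a hairpin precursor whose arms give the 5p and the 3p form, and one arm usually accumulates while the other is degraded. The retained strand guides a silencing complex to messenger RNAs through its seed, bases 2 to 8, so that miRNAs with one seed share many predicted targets. miR-21 is widely expressed, is raised in many tumours and represses Pdcd4. miR-22 is abundant in heart and muscle. miR-26a and miR-26b repress Ezh2, and their hairpins lie in genes for small C-terminal domain phosphatases.

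The mature sequences are given because they show which members can act on the same targets and how closely 2 members resemble each other for read counting. They are those of RefSeq on GRCm38.p6, written 5′ to 3′ with the seed in capitals.
miR-21a-5p: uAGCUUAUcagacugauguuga
miR-21a-3p: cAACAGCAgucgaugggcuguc
miR-22-3p: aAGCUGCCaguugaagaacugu
miR-22-5p: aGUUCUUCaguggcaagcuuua
miR-26a-5p: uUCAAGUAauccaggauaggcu
miR-26b-5p: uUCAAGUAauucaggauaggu

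miR-26a-5p and miR-26b-5p had the seed UCAAGUA in common, and no other name in the table with a RefSeq sequence carried it. Over the 21 bases that could be compared they were identical at 19, including the first 10. They differed by C11U and C21U, the base of miR-26a-5p first and positions counted from 1 at the 5′ end, and miR-26a-5p has 22 bases against 21. The other 4 members each had a seed found in no other name of the table. In RefSeq miR-21c has the seed of miR-21a-5p and was not analysed here. Sequences were found for 299 of the 358 names. GGAG and CCCU, letters reported in miRNAs that are sorted into vesicles, were searched in the bases after the middle of each mature miRNA, on its own strand. GGAG was there in 2.34% of the 299 names, CCCU in 2.68% and either in 5.02%, and in 0 of the 6 members.

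The members come from 5 hairpins. Mir21a lies at chr11:86584067-86584158 on the minus strand, within a UTR exon of 1 protein-coding transcript of Vmp1. Mir22 lies at chr11:75463716-75463810 on the plus strand, within exons of the noncoding Mir22hg and of a noncoding transcript of Tlcd2. miR-26a-5p is cut from 2 hairpins, so its reads cannot be divided between them. Mir26a-1, at chr9:119031796-119031885 on the plus strand, lies in an intron of Ctdspl. Mir26a-2, at chr10:126995530-126995613 on the plus strand, is exonic in 2 of the 3 transcripts of Ctdsp2 that span it, in the UTR of 1 of them. Mir26b, at chr1:74394310-74394394 on the plus strand, lies in an intron of Ctdsp1. The 3 hairpins outside UTR exons are given 5′ to 3′ with both arms in capitals, to show the strands between which one is kept. Both arms of Mir22 were measured, and of the miR-26 hairpins the arm nearer the 5′ end was measured, the 3p arms being not analysed here.
Mir22: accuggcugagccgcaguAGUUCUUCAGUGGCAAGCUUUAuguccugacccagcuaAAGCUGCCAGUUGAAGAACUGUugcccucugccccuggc
Mir26a-1: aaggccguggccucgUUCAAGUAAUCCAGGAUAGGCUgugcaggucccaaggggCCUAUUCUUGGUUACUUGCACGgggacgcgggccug
Mir26b: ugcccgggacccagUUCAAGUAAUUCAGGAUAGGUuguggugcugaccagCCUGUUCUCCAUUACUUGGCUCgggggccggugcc

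Levels are given in CPM, read counts brought to a common library total. The number of reads on miRNAs in a library, taken from the steps between the CPM values, lay between 1548581 in corpus replicate 3 and 11306605 in caput replicate 1. Caput replicate 2 stood apart. In this library miR-10a-5p and miR-10b-5p together took 71.3% of the reads, against 50.5% and 63.2% in the other caput libraries, 50.3% to 53.2% in the corpus and 33.2% to 34.5% in the cauda. All 6 members had their lowest CPM of the 9 libraries there. Differences in level are therefore also shown with TMM scaling, which sets libraries by the bulk of their miRNAs and not by their total. Some differences are also given without this library.

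miR-26a-5p, miR-22-3p and miR-21a-5p were the seventh, eighth and ninth most abundant of the 358 miRNAs by the mean of the 9 libraries. The means were 20540, 18999 and 15476 CPM. The 3 together took between 2.79% of the reads in caput replicate 2 and 7.37% in cauda replicate 2. miR-26b-5p was at rank 35 with 2141 CPM, while miR-21a-3p was at rank 173 with 61.3 CPM and miR-22-5p at rank 219 with 31.0 CPM. Abundance was thus a property of 3 of the 6 members, and the 2 minor arms were expressed at a low level.

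miR-21a-5p measured 14551, 7234 and 16003 CPM in caput replicates 1, 2 and 3, a mean of 12596 ± 4700 (SD, n = 3). The corpus libraries held 12810, 11795 and 15738 CPM, a mean of 13448 ± 2048 (SD, n = 3). The cauda libraries held 19569, 22359 and 19223 CPM, a mean of 20384 ± 1719 (SD, n = 3). All 3 cauda libraries lay above the 6 others, while the caput and corpus libraries overlapped.

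miR-22-3p measured 23594, 9332 and 23369 CPM in the caput, a mean of 18765 ± 8170 (SD, n = 3). The corpus values were 17956, 16609 and 13922 CPM, a mean of 16162 ± 2054 (SD, n = 3). In the cauda they were 22515, 24207 and 19483 CPM, a mean of 22068 ± 2394 (SD, n = 3). The corpus libraries lay below all cauda libraries and below 2 of the 3 caput libraries, and the caput and cauda overlapped.

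miR-26a-5p measured 15954, 11295 and 21807 CPM in the caput, a mean of 16352 ± 5268 (SD, n = 3). The corpus values were 18640, 21876 and 18360 CPM, a mean of 19625 ± 1954 (SD, n = 3). In the cauda they were 20545, 27176 and 29210 CPM, a mean of 25644 ± 4531 (SD, n = 3). The means were ordered caput, corpus, cauda from low to high, but the libraries of each segment overlapped with those of the others.

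miR-26b-5p, which shares the seed of miR-26a-5p, measured 1779, 850 and 2296 CPM in the caput, a mean of 1642 ± 733 (SD, n = 3). The corpus values of 2471, 2560 and 2406 CPM gave a mean of 2479 ± 77.3 (SD, n = 3). The cauda values of 2217, 2289 and 2396 CPM gave a mean of 2301 ± 90.0 (SD, n = 3). The corpus libraries were the highest without overlap, unlike those of miR-26a-5p, whose mean was highest in the cauda. The gap was narrow, with corpus replicate 3 at 2406 CPM and cauda replicate 3 at 2396 CPM. For the former the exact 95% Poisson interval, which covers counting error only, was 2329 to 2485 CPM. With TMM scaling caput replicate 1, at 2361, lay above all corpus libraries, the highest of which was at 2288.

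The minor arms were measured with fewer reads. miR-21a-3p held 43.2, 31.4 and 94.4 CPM in caput libraries, 56.9, 74.4 and 78.1 CPM in corpus libraries and 39.5, 59.5 and 74.6 CPM in cauda libraries. miR-22-5p held 20.2, 8.46 and 38.8 CPM in caput libraries, 26.5, 27.0 and 20.02 CPM in corpus libraries and 39.0, 65.0 and 34.4 CPM in cauda libraries. miR-21a-3p overlapped between all segments, while the cauda libraries of miR-22-5p lay above those of the corpus. The fewest reads of any member in a library were 31 of miR-22-5p in corpus replicate 3, for which the exact 95% Poisson interval was 13.6 to 28.4 CPM. This interval covers counting error only.

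**Figure D1:**
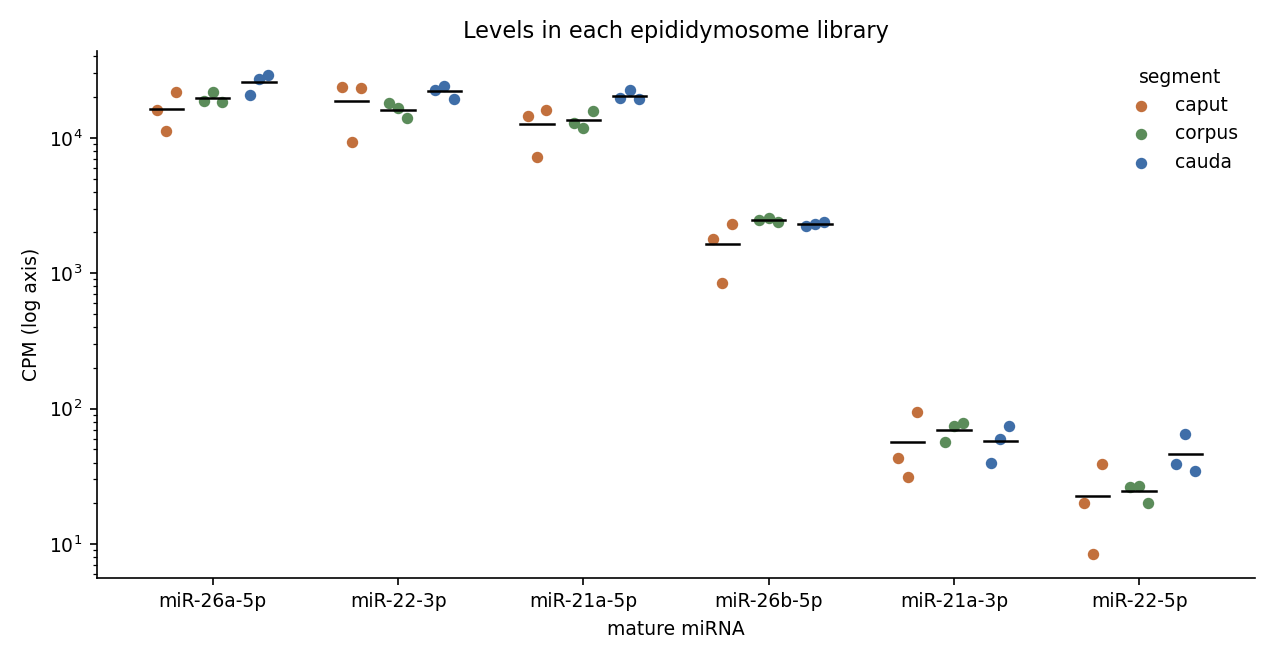
Level of each member in CPM, on a log axis, for each library (points, replicates 1 to 3 from left to right) in the caput, corpus and cauda, with the mean of each segment as a line. The 3 abundant members lie between 7234 and 29210 CPM, miR-26b-5p between 850 and 2560 CPM, and the minor arms under 100 CPM, and the second caput point is the lowest of each member.

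The order of the abundant members among their neighbours was only partly resolved by the replicates. In the caput miR-22-3p, miR-26a-5p and miR-21a-5p ranked 6, 8 and 11, and each overlapped with the miRNAs next to it, such as miR-141-3p, an epithelial miRNA, which lay between 15427 and 19488 CPM. In the corpus miR-26a-5p ranked 7, below miR-148a-3p at 31853 CPM or more and above miR-22-3p at 17956 CPM or less, in both cases without overlap. In the cauda miR-26a-5p, miR-22-3p and miR-21a-5p ranked 6, 7 and 8 and overlapped with each other, and miR-21a-5p lay above miR-148a-3p, which reached at most 15082 CPM. No test was made of these ranks.

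Segments were compared to see whether the members accumulate differently along the epididymis. limma was fitted to log2(CPM + 1) of all 358 miRNAs in all 9 libraries, and a miRNA was called at an adjusted p under 0.05 after Benjamini-Hochberg adjustment and a fold change of at least 2. The pseudocount of 1 makes the fold changes of the minor arms too small. 0 of the 6 members were called between caput and corpus, where 22.4% of the tested miRNAs were called, 0 between corpus and cauda, where 19% were called, and 0 between caput and cauda, where 49% were called. At an unadjusted p under 0.05 the members were 0, 0 and 3 in the same order, where 37.1%, 32.5% and 58.5% of the tested miRNAs passed. limma-voom with library size scaling also called 0 members in each comparison. A miRNA that was not called is not shown to be equal. Of the 18 intervals of the 6 members in 3 comparisons, 5 lay wholly within a 2-fold change in either direction, while 13 did with TMM scaling and 12 without caput replicate 2. The comparisons share libraries and are not independent of each other.

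Between caput and cauda all 6 members had a positive log2 fold change. That of miR-21a-5p was 0.77 (standard error 0.29, 95% interval 0.15 to 1.40, limma adjusted p 0.0370). That of miR-26a-5p was 0.68 (standard error 0.27, interval 0.12 to 1.25, limma adjusted p 0.0411). Both were under the required 2-fold, and by the adjusted p alone 51.3% of the tested miRNAs passed, 40.4% with a higher value in the cauda. Each pass by the adjusted p alone was lost when certain single libraries were left out. For corpus libraries this came through the estimate of spread, because they do not enter the caput to cauda difference. Neither member passed without corpus replicate 1, cauda replicate 2 or cauda replicate 3. miR-26a-5p did not pass without caput replicate 1, caput replicate 2, corpus replicate 2 or corpus replicate 3, and miR-21a-5p did not pass without caput replicate 2 or cauda replicate 1. Neither passed when the fit held only the 6 caput and cauda libraries.

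The other 4 members did not pass between caput and cauda. The log2 fold change was 0.35 for miR-22-3p (interval -0.32 to 1.02, limma adjusted p 0.370), 0.60 for miR-26b-5p (interval -0.16 to 1.37, adjusted p 0.173) and 0.15 for miR-21a-3p (interval -0.84 to 1.13, adjusted p 0.812). miR-22-5p had the largest difference of the 6, at 1.18 (interval 0.11 to 2.26, adjusted p 0.0607). Without caput replicate 3, the highest caput library of this miRNA, its difference was 1.68 with an adjusted p of 0.00702, so that it was called, as 60.3% of the tested miRNAs then were. Without caput replicate 2 it was 0.64 (adjusted p 0.225), and with TMM scaling 0.54 (adjusted p 0.202). miR-21a-5p was the only member whose caput and cauda values were fully separated, against 54.2% of the miRNAs tested, 42.4% with the cauda higher.

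Higher CPM in the cauda was common to the table. The median log2 fold change from caput to cauda was 0.81 over the 349 miRNAs tested with library size scaling. With TMM scaling it was 0.07 over the 350 tested. Relative to the median of 0.81, miR-21a-5p was at -0.04, miR-26a-5p at -0.13, miR-26b-5p at -0.21, miR-22-3p at -0.46, miR-21a-3p at -0.66 and miR-22-5p at 0.37. With TMM scaling the difference of miR-21a-5p was 0.10 (interval -0.34 to 0.53) and that of miR-26a-5p 0.01 (interval -0.37 to 0.38). miR-22-3p was then at -0.33 and miR-26b-5p at -0.07. Without caput replicate 2 and with library size scaling, miR-21a-5p was at 0.41, miR-26a-5p at 0.44 and miR-22-3p at -0.10. miR-21a-5p and miR-26a-5p thus lay near the median of the table under either scaling.

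**Figure D2:**
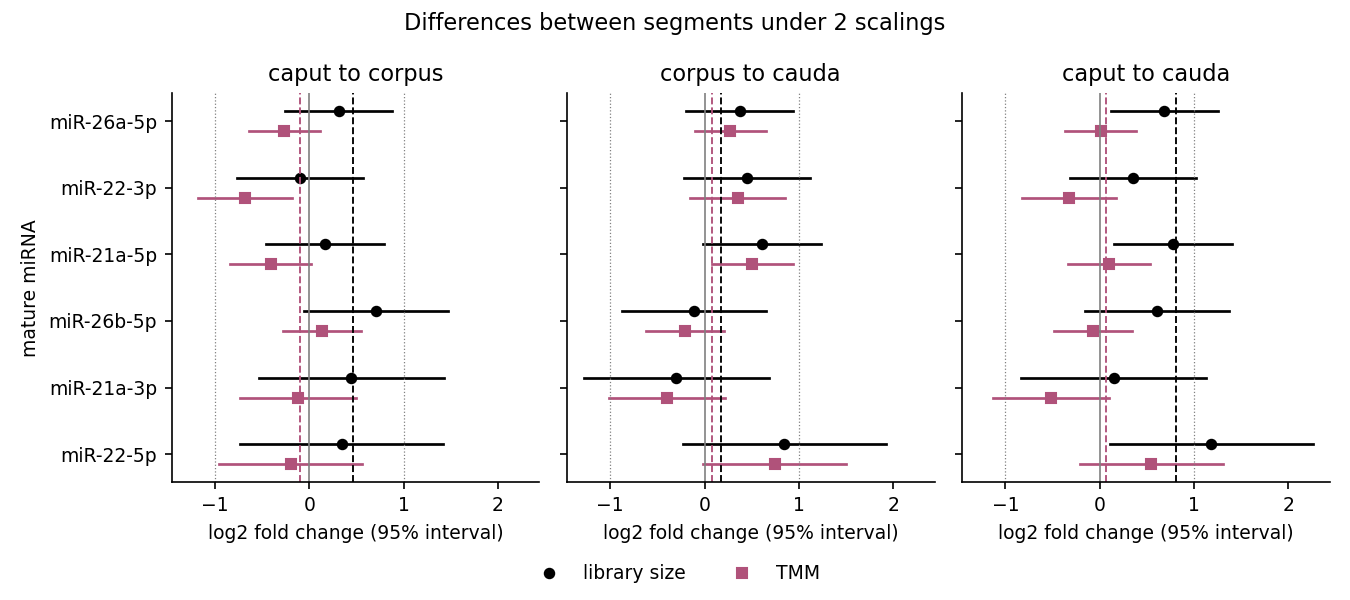
Log2 fold change of each member in the 3 comparisons of segments, with its 95% interval from limma, for library size scaling (black circles) and TMM scaling (purple squares). Dashed lines mark the median of all miRNAs tested under each scaling and dotted lines a 2-fold change. From caput to cauda the 6 black points lie above 0, against a median of 0.81, and with TMM scaling miR-26a-5p and miR-21a-5p lie at 0.01 and 0.10.

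From caput to corpus the differences of the abundant members were 0.17 for miR-21a-5p, -0.10 for miR-22-3p and 0.31 for miR-26a-5p, with limma adjusted p of 0.702, 0.825 and 0.417. The median of the 321 tested miRNAs was 0.47, so that miR-22-3p was 0.57 below it. With TMM scaling miR-22-3p was lower in the corpus by the adjusted p alone, at a log2 fold change of -0.68 (interval -1.18 to -0.18, adjusted p 0.0398), which is under 2-fold. By that rule 36.8% of the tested miRNAs passed with TMM scaling, and 23.1% with library size scaling. With median-of-ratios scaling it was -0.63 with an adjusted p of 0.0499. With library size scaling but without caput replicate 2 it was -0.55, also past the adjusted p alone. For these last settings the share of all miRNAs passing by that rule was not taken. miR-26b-5p had the largest difference of the 6, 0.71 (interval -0.05 to 1.47, adjusted p 0.164), and was the only member without overlap between caput and corpus, against 34.9% of the miRNAs tested, 29.3% with the corpus higher. Without caput replicate 3 its difference was 1.01 with an adjusted p of 0.0323, so that it was called, as 33.3% of the tested miRNAs then were. Without caput replicate 2 it was 0.29 (adjusted p 0.362), and with TMM scaling 0.13 (adjusted p 0.646).

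From corpus to cauda the differences were 0.61 for miR-21a-5p (interval -0.02 to 1.23, limma adjusted p 0.165), 0.45 for miR-22-3p (interval -0.22 to 1.12, adjusted p 0.358) and 0.37 for miR-26a-5p (interval -0.19 to 0.94, adjusted p 0.366). miR-26b-5p was at -0.11 (interval -0.87 to 0.66), miR-21a-3p at -0.30 and miR-22-5p at 0.84. The libraries did not overlap for 4 members, miR-21a-5p, miR-22-3p and miR-22-5p with higher values in the cauda and miR-26b-5p with lower ones, against 46.2% of the 342 miRNAs tested, 30.1% with the cauda higher and 16.1% with it lower. For miR-26b-5p the gap was narrow, between 2406 CPM in corpus replicate 3 and 2396 CPM in cauda replicate 3. The largest of the abundant members' differences, that of miR-21a-5p, remained at 0.51 with TMM scaling (adjusted p 0.0751). When the fit held only the 6 corpus and cauda libraries, miR-21a-5p and miR-22-3p passed the adjusted p alone, as 29.5% of the tested miRNAs did in that fit.

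An F test for any difference between the segments in the same limma fit called 0 of the 6 members, where 48.9% of all miRNAs passed an adjusted p of 0.05. The lowest adjusted p was 0.0795, for miR-21a-5p, which was also the 1 member with an unadjusted p under 0.05. limma-voom called 0 as well. Without caput replicate 2 the test called 2 members and 48.3% of all miRNAs, and without caput replicate 3 it called 4 members and 57.2%.

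**Figure D3:**
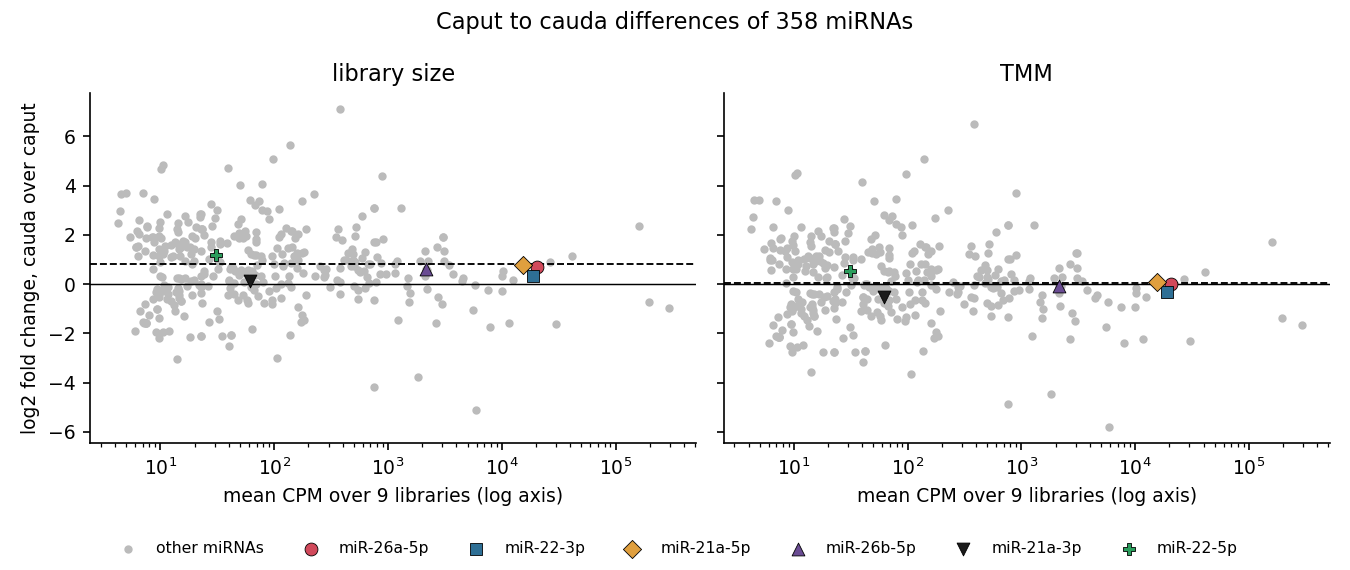
Log2 fold change from caput to cauda against the mean level over 9 libraries (CPM, log axis) for 358 miRNAs, with library size scaling (left) and TMM scaling (right); the dashed line is the median of the miRNAs tested, 0.81 on the left and 0.07 on the right. The members (coloured markers) lie within the body of the points under both scalings, and the 3 abundant members sit close together at the right of the body.

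The spread of each member over the 9 libraries was set beside that of the 142 miRNAs averaging 100 CPM or more, without a test. With library size scaling the coefficient of variation was 24.9% for miR-26b-5p, 26.5% for miR-26a-5p, 26.7% for miR-22-3p and 29.6% for miR-21a-5p, against a median of 42.9%. With TMM scaling it was 10.1% for miR-26b-5p and 12.7% for miR-26a-5p, against a median of 39.0%. These were places 1 and 3 from the least spread of the 142. TMM gives more weight to miRNAs with more reads, so miR-26b-5p may itself have helped to set this scale. The TMM-scaled values of miR-26b-5p were 2361, 1779 and 1972 in caput libraries, 2288, 2243 and 2130 in corpus libraries and 2047, 1863 and 1862 in cauda libraries. Those of miR-26a-5p were 21174, 23638 and 18729 in caput libraries, 17258, 19170 and 16253 in corpus libraries and 18964, 22117 and 22695 in cauda libraries. The highest library was 1.33 times the lowest for miR-26b-5p and 1.45 times for miR-26a-5p. miR-21a-5p and miR-22-3p were at 19.99% and 29.1% on this scale, at places 21 and 50 from the least spread. With library size scaling miR-26b-5p, miR-26a-5p, miR-22-3p and miR-21a-5p were at places 16, 22, 23 and 32, so that the low spread of the miR-26 members in rank depended on the scaling.

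The highest segment mean was 1.37 times the lowest for miR-22-3p, 1.51 times for miR-26b-5p, 1.57 times for miR-26a-5p and 1.62 times for miR-21a-5p. It was 1.24 times for miR-21a-3p and 2.05 times for miR-22-5p. The median over all 358 miRNAs was 2.62, over the 142 averaging 100 CPM or more 2.15, and over the 20 most abundant 1.64. By these means, which are for library size scaling, the 4 more abundant members differed less between segments than the median of the 142. All 4 also lay below the median of the 20 most abundant, a set that holds all of them but miR-26b-5p. miR-21a-5p at 1.62 was close to that median of 1.64. The order of the 4 depended on the scaling. TMM-scaled means of miR-22-3p were 23639 for caput, 14501 for corpus and 18540 for cauda libraries. Those of miR-26b-5p were closer together, at 2037, 2220 and 1924. The medians of the sets were not taken with TMM scaling.

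Ratios of 2 members within a library do not depend on how libraries are scaled. The ratio of miR-26a-5p to its seed partner miR-26b-5p was 8.97, 13.3 and 9.50 in caput libraries, 7.54, 8.54 and 7.63 in corpus libraries and 9.27, 11.9 and 12.2 in cauda libraries. The corpus libraries lay below all others. The corpus ratio was 1.32-fold lower than in the caput and the cauda ratio 1.40-fold higher than in the corpus, each with p = 0.1 by a two-sided exact permutation test, the smallest p that 3 libraries against 3 can give. Over the 12 ratio tests the adjusted p was 0.4 for both, and between caput and cauda the ratio differed 1.06-fold (exact permutation test, p = 0.9).

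The ratio of miR-21a-5p to miR-22-3p was 0.617, 0.775 and 0.685 in caput libraries, 0.713, 0.710 and 1.13 in corpus libraries and 0.869, 0.924 and 0.987 in cauda libraries. miR-22-3p was the more abundant of the pair in all libraries except corpus replicate 3. Caput and cauda did not overlap, with a 1.34-fold higher ratio in the cauda (exact permutation test, p = 0.1, adjusted p 0.4). The other comparisons of this ratio and all those of miR-21a-5p or miR-22-3p with miR-26a-5p overlapped between segments, with exact permutation p between 0.2 and 0.8. The ratio of miR-21a-5p to miR-26a-5p lay between 0.539 and 0.952, and that of miR-22-3p to miR-26a-5p between 0.667 and 1.48.

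The 2 arms of a hairpin were compared to see whether one strand was favoured to the same degree in each segment. The ratio of miR-21a-5p to miR-21a-3p was 336, 230 and 170 in caput libraries, 225, 159 and 201 in corpus libraries and 496, 376 and 258 in cauda libraries. The cauda libraries lay above those of the corpus, and caput overlapped with both. In limma on the log2 ratio of 5p to 3p, the cauda was 0.91 above the corpus (interval 0.11 to 1.71), with an adjusted p of 0.132 over the 61 hairpins whose arms each averaged 10 CPM or more over the 9 libraries. The threshold was passed by 4.92% of the hairpins in this comparison.

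The ratio of miR-22-3p to miR-22-5p was 1170, 1103 and 602 in caput libraries, 678, 615 and 695 in corpus libraries and 578, 372 and 566 in cauda libraries. The cauda libraries lay below all libraries of the other segments, although cauda replicate 1 at 578 was near caput replicate 3 at 602. As the log2 ratio of 5p to 3p, Mir22 differed by 0.86 between caput and cauda (interval 0.10 to 1.62, limma adjusted p 0.0973), where 13.1% of the hairpins passed, and by 0.46 between caput and corpus, where 3.28% passed. Without caput replicate 2 these differences were 0.75 (limma adjusted p 0.205) and 0.35. Neither hairpin was called in any comparison. At an unadjusted p under 0.05 Mir21a passed between corpus and cauda and Mir22 between caput and cauda. The share of the 61 hairpins passing at that threshold was not taken, so these passes cannot be set against it. Averaged over the 9 libraries the favoured arm exceeded the other 656-fold for Mir22 and 253-fold for Mir21a, the fifth and ninth strongest of the 61 hairpins, whose median was 16.5-fold.

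**Figure D4:**
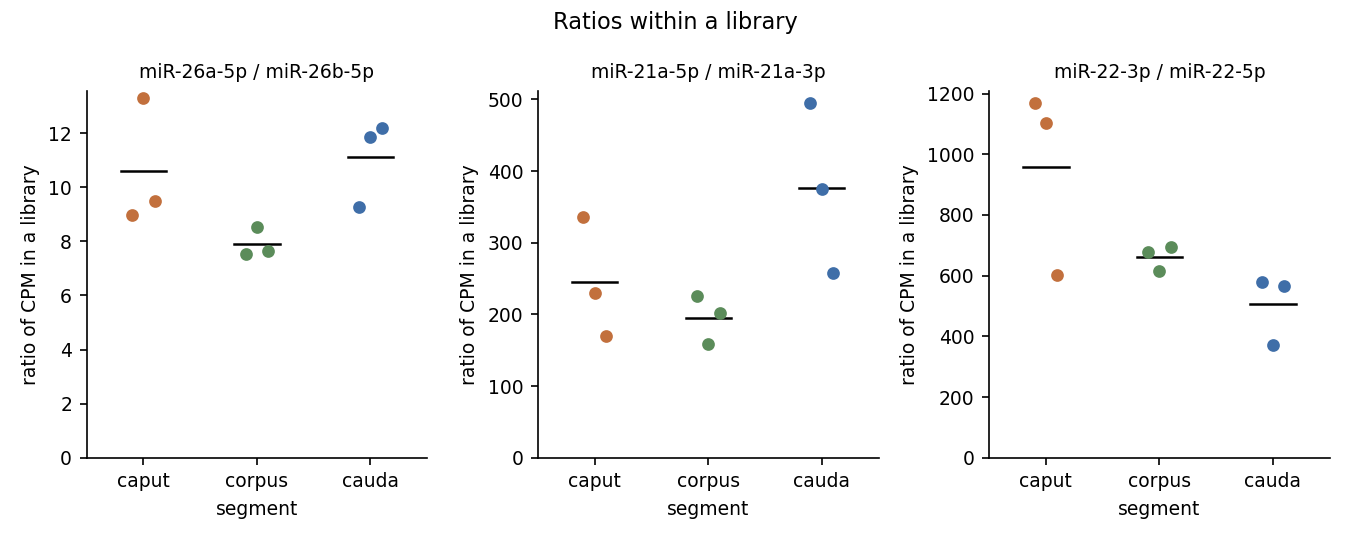
Ratio of 2 members within each library (points) with the mean of each segment (line), on axes from 0. miR-26a-5p to miR-26b-5p was lowest in the corpus, at 7.54 to 8.54, miR-21a-5p to miR-21a-3p was higher in the cauda than in the corpus, and miR-22-3p to miR-22-5p was lowest in the cauda, at 372 to 578.

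Among the 138 other miRNAs averaging 100 CPM or more, those most like an abundant member over the 9 libraries were found by Pearson's r of log2(CPM + 1). The libraries share their segment and their scaling, so that r is a description. For miR-21a-5p they were miR-19b-3p (r = 0.956), miR-15a-5p (0.927) and miR-16-5p (0.915). For miR-22-3p they were miR-497a-5p (r = 0.951), miR-29c-3p (0.902) and miR-27a-3p (0.873). For miR-26a-5p they were miR-411-5p (r = 0.946), miR-532-5p (0.936) and miR-136-3p (0.910). With TMM scaling 2 of these 9 stayed among the first 3, miR-19b-3p and miR-29c-3p, and r of miR-136-3p with miR-26a-5p went to -0.10. The members themselves showed the same dependence: between miR-26a-5p and miR-26b-5p r was 0.81 with library size scaling and -0.61 with TMM scaling, and between miR-21a-5p and miR-22-3p it was 0.82 and 0.69.

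A list of 25 miRNAs known to be abundant in many tissues, such as let-7 members that repress growth genes, was all present and tested. From caput to corpus 6 were called higher and 0 lower, from corpus to cauda 0 higher and 3 lower, and from caput to cauda 4 higher and 3 lower. Among all tested miRNAs 19% were called higher and 3.43% lower in the first comparison, 14% and 4.97% in the second, and 38.7% and 10.3% in the last. The median log2 fold changes of the list were 0.50, -0.10 and 0.32, beside 0.47, 0.18 and 0.81 over all miRNAs tested. With TMM scaling the caput to corpus count was 1 higher and 1 lower, the caput to cauda count 0 higher and 4 lower and the caput to cauda median -0.36, so that the direction of the list depended on the scaling. From caput to cauda miR-148a-3p fell by 1.62, miR-191-5p by 1.57 and miR-125a-5p by 1.57 on the log2 scale, and let-7i-5p rose by 1.49, which was 0.81 with TMM scaling. The 3 abundant members, from 0.35 to 0.77, lay between these falls and this rise.

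Several markers of other cell types also differed between segments, as summed CPM in the libraries of each segment. The 5 epithelial markers were all present, at 20990 to 31796 in the caput, 71973 to 84209 in the corpus and 44552 to 61007 in the cauda. This sum was led by miR-141-3p, with means of 17882, 65694 and 40435 CPM in the same order. From caput to cauda the log2 fold changes were 1.16 for miR-141-3p, 0.79 for miR-200a-3p, 0.42 for miR-429-3p, 0.24 for miR-200c-3p and -0.50 for miR-200b-3p. The 3 smooth muscle markers, led by miR-143-3p, were at 50111 to 88978, 88413 to 121407 and 291651 to 354735. The 4 red blood cell markers were at 223 to 848, 389 to 1104 and 3019 to 4348. Most of this sum was miR-486a-5p and miR-486b-5p, with means of 761 and 759 CPM over the 9 libraries. From caput to cauda their log2 fold changes were 3.095 and 3.094, so they may not be separate measurements. Of the 5 striated muscle markers 4 were in the table, at 55.5 to 197, 121 to 167 and 1403 to 4146, with miR-208b-3p at 0 in 1 library. The 5 leukocyte markers were at 231 to 530, 515 to 1149 and 392 to 1601. The 2 endothelial markers were at 837 to 2671, 1721 to 3109 and 2684 to 3457, and the 5 germ cell markers at 194 to 885, 446 to 493 and 1565 to 1923. The germ cell sum was mostly miR-34c-5p, with means of 550, 350 and 1469 CPM. The paper reports miR-34c in the epididymal epithelium too, at a higher level in the caput than in the cauda, so this sum is not particular to germ cells. The smooth muscle, striated muscle, red blood cell and germ cell sums were higher in all cauda libraries than in any other, as miR-21a-5p was. Their part in its level was not tested. By immunoblot the paper found no haemoglobin and no ALOX15, a cytoplasmic droplet marker, in the vesicles. It also lists miR-21a-5p among vesicle miRNAs that its data on the epididymal soma lacked or held below detection.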

How the data were processed

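Small RNA was measured in 9 libraries of epididymosomes, 3 per segment, grouped by the segment in the labels. The deposited values are CPM: per the paper's methods the authors counted reads on known mature miRNAs and scaled them to library size. The submitters' processing notes name CASAVA 1.8.2, Bowtie 1.1.1 and limma; the genome build and miRBase release are not given in the sources used here. Scaling to library size makes each CPM value depend on the most abundant miRNAs of its library.

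The 255 to 312 lowest CPM values above 0 in each library were whole multiples of 1 read (100% within 0.02 of a read), which gave the reads per library. Only 10 to 114 values per library lay within 20 times its smallest value, so a negative binomial count test was not run, and limma-voom on the recovered reads was used as an alternative. Segments were compared with limma 3.58 in R 4.3 (lmFit, eBayes with trend, log2(CPM + 1), all 9 libraries, no factor but the segment). Benjamini-Hochberg adjustment covered miRNAs averaging 10 CPM or more in either segment compared, and calls needed a 2-fold change or more at an adjusted p under 0.05. Arm ratios used a pseudocount of 0.5 CPM. Ratios between members were tested by exact permutation. The steps were tested on simulated data. Alternatives were TMM and median-of-ratios scaling, library size without the 3 most abundant miRNAs, limma-voom on the recovered reads, other filters (none, 20 CPM) and pseudocounts (0.1, 10), other call rules, the 6 libraries compared alone, a replicate block and each library left out in turn. limma-voom with TMM scaling was added after the data had been seen.

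The members, list and markers were chosen with earlier results of these data known; a second list of miRNAs is not reported here. All members are named, with their neighbours in rank, the 3 most alike miRNAs of each abundant member and at most 4 called miRNAs of the list. Sequences and hairpins are those of RefSeq and gene models those of GENCODE, on GRCm38.p6. The labels tie no library to single animals, so p-values measure the spread between pools. Python 3.11 was used for tables and figures.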

Additional observations from a re-analysis of the deposited data

How the results depend on the processing

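Several differences between segments changed sign with the scaling. In the order TMM, median-of-ratios and limma-voom with TMM (added after the data had been seen), the log2 fold changes that turned sign were, from caput to corpus, -0.41, -0.36 and -0.41 for miR-21a-5p, -0.27, -0.21 and -0.26 for miR-26a-5p, -0.12, -0.066 and -0.14 for miR-21a-3p, and -0.20, -0.15 and -0.19 for miR-22-5p. From caput to cauda they were -0.33, -0.38 and -0.34 for miR-22-3p, -0.074, -0.12 and -0.091 for miR-26b-5p, -0.52, -0.56 and -0.51 for miR-21a-3p and, with median-of-ratios alone, -0.039 for miR-26a-5p. With library size without the 3 most abundant miRNAs the values that turned were -0.13 for miR-21a-5p from caput to corpus, -0.00022 for miR-21a-3p from caput to cauda and 0.037 for miR-26b-5p from corpus to cauda. That scaling called 1 member from caput to cauda, miR-22-5p, and 2 members by the F test, where 50.3% and 60.2% of all tested miRNAs were called. The adjusted p alone, without a fold, passed 2 members from caput to cauda, miR-21a-5p (0.77) and miR-26a-5p (0.68). None of these differences was called under any of the settings in which it turned.

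With 1 library left out, the ranges that included a change of sign were -0.19 to 0.38 for miR-21a-5p, -0.55 to 0.12 for miR-22-3p and -0.20 to 0.84 for miR-22-5p from caput to corpus, and -0.10 to 0.57 for miR-22-3p and -0.19 to 0.59 for miR-21a-3p from caput to cauda. The log2 ratio of miR-26a-5p to miR-26b-5p ranged from -0.026 to 0.26 from caput to cauda, that of miR-21a-5p to miR-26a-5p from -0.31 to 0.026 from caput to corpus and from -0.035 to 0.23 from caput to cauda, and that of miR-22-3p to miR-26a-5p from -0.092 to 0.27 from corpus to cauda. Members called ranged from 0 to 1 from caput to corpus and from caput to cauda, in both cases 1 without caput replicate 3, and from 0 to 4 by the F test. Of the 9 most alike miRNAs 2 stayed with Spearman's rho and 2 with TMM scaling.

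The labels number the replicates of each segment from 1 to 3. Deviations of same-numbered libraries correlated at -0.21 to 0.41, over 0.1 in 6 of 9 pairs, and those of differently numbered libraries at -0.45 to 0.18. The labels do not say that equal numbers share animals, so the main fit did not pair the libraries. Whether same-numbered libraries are matched was not settled. With the replicate number as a block 0 members were called in each comparison, and over all miRNAs 83, 73 and 180 were called from caput to corpus, corpus to cauda and caput to cauda, against 72, 65 and 171. The planned count test of edgeR was not run with either scaling, because its planned check of the unit used only the lowest CPM values. Within 20 times the smallest value there were only 10 to 114 per library. A check over more values did find whole multiples of 1 read, and limma-voom used those reads. For the cases above in which a value changed, the cause was not tested.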
